A study of Mus musculus with 20 samples.

Results

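Cell cycle and DNA replication genes were examined in kidney cortex of mice after 3 kinds of acute kidney injury. The members are the 64 genes, of 6025 in the deposited expression table, whose symbols name cyclins, cyclin-dependent kinases, replication factors, centromere proteins, kinesins and related proteins. By function they fall into 6 cyclins and kinases of G1 (the phase before DNA replication), 14 genes of S phase and DNA replication, and 19 genes of G2 and mitosis. The remaining 25 share a name with these families but were listed under other functions and are described apart. Examples are kinesins that carry cargo in resting cells. The lists were written from textbook knowledge. A part in the cell cycle is not excluded for these 25, which include Cdca7 (cell division cycle associated 7). All mice were wild-type C57BL/6 animals 8 weeks old. The 20 kidneys comprise 8 mock-treated controls, which the series text calls mock and vehicle, 4 kidneys taken 24 h after ischemia-reperfusion injury (IRI, a temporary block of the blood supply), 4 taken 24 h after rhabdomyolysis (muscle breakdown, whose products injure the kidney) and 4 taken 72 h after cisplatin (a platinum drug that damages DNA). Controls 1 to 4 and the IRI kidneys carry identifiers of one range. Controls 5 to 8 and the rhabdomyolysis and cisplatin kidneys carry identifiers of another, so IRI was compared with controls 1 to 4 and the other 2 injuries with controls 5 to 8, which those 2 comparisons therefore share. Cisplatin is the one injury sampled at 72 h, so agent and time cannot be told apart in any comparison with it.

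A dividing cell passes from G1 into S phase when cyclins D and E with their kinases release E2F transcription factors from the retinoblastoma proteins. Replication origins are then licensed by ORC and CDC6, which load the MCM2-7 helicase, and the helicase is fired with the help of CDC45, the GINS complex and MCM10. PCNA holds the polymerases on DNA, and ribonucleotide reductase (RRM2) supplies their nucleotides. Cyclin B with CDK1 starts mitosis, in which condensins, kinetochore proteins and mitotic kinesins pack and part the chromosomes. Tubule cells of the healthy adult kidney rarely divide, and surviving cells re-enter the cycle after acute injury.

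Promoter sequences of 5 members are shown because these genes mark the range of responses described here: Mcm5 was among the members that rose most after IRI, Mcm10 fell after 2 injuries, Cdk1 rose most after IRI, Ccnb2 did not rise, and Kif20b fell after every injury. Each is the 250 bases before a RefSeq transcription start (GRCm38.p6), 5′ to 3′ on the gene's strand, in lower case. Capitals mark 3 kinds of motif sought on both strands: 7-letter E2F words (TTGGCGC and TTGCCGC as well as the words TTCGCGC and TTCCCGC), the cell cycle homology region (TTTGAA or TTCGAA) and the CCAAT box (CCAAT). In the Mcm5 promoter a pair of E2F matches overlap in 1 run of capitals.
Mcm5 promoter, chr8:75109259-75109508, plus strand: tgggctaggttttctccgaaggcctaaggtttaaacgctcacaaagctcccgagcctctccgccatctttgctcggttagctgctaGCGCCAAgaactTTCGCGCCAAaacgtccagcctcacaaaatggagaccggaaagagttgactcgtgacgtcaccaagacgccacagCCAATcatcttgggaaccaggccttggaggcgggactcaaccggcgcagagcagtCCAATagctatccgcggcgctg
Mcm10 promoter, chr2:5012792-5013041, minus strand: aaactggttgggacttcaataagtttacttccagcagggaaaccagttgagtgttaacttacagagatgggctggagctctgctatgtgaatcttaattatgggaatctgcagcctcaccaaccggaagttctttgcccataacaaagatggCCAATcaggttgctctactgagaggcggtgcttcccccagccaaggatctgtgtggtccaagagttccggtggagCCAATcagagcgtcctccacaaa
Cdk1 promoter, chr10:69352913-69353162, minus strand: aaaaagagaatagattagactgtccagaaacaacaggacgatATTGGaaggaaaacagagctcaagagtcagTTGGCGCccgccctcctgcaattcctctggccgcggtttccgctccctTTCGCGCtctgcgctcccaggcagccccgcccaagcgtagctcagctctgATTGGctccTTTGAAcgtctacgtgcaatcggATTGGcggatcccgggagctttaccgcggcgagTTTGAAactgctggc
Ccnb2 promoter, chr9:70421555-70421804, minus strand: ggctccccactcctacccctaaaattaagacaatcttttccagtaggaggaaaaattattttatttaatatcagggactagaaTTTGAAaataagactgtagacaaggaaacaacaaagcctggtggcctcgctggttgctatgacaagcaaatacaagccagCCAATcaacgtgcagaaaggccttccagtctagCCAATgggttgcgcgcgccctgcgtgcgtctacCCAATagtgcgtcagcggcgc
Kif20b promoter, chr19:34922108-34922357, plus strand: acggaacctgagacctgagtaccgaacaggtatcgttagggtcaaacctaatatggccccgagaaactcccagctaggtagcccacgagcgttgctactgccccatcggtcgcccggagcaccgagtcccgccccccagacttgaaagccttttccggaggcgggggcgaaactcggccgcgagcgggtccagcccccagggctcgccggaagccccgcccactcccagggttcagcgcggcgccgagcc
The Mcm5 promoter holds E2F and CCAAT matches and the Cdk1 promoter all 3 kinds. Mcm10 has CCAAT matches alone, Ccnb2 has CCAAT and cell cycle homology region matches, and the 250 bases shown for Kif20b hold none of these letters, while the 50 bases after its start hold 2 cell cycle homology region matches. RefSeq start sites were found for 53 of the 64 members, with 60 windows of 300 bases (250 before and 50 after the start). An E2F word stood in 58.3% of the 12 S phase windows, 27.8% of the 18 mitosis windows and 40% of the 5 G1 windows, against 9.57% of all 32851 windows. The cell cycle homology region stood in 61.1% of the mitosis windows and 41.7% of the S phase windows and in 0 of the 5 G1 windows, against 19.2% of all windows. A CCAAT box stood in 72.2% of the mitosis windows, 75% of the S phase windows and 40% of the G1 windows, against 37.4% of all. The windows of the 25 name-matched genes listed under other functions (25 windows of 19 genes) held an E2F word in 16%, a cell cycle homology region in 20% and a CCAAT box in 32%. Base composition differs as well, with a median GC content of 52.7% over all windows, 61.2% for S phase, 57.8% for mitosis, 66.7% for G1 and 69.3% for the other functions. These are matches of letters and not shown to be binding sites.

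Expression is taken to be in CPM, read counts divided by a library size and scaled to a common size. Whether that library size is the plain read total was not checked. The table holds 3.48 to 5.40 M reads per library in the 19 libraries whose recovered reads were used, and 1 read is worth 0.0945 to 0.165 CPM, so members near 1 CPM rest on few reads. The mean of 1 injury or more lies at least 1.5-fold above or below that of the 8 controls for every gene in the table, and every gene is above 1 CPM in at least 4 libraries. Other genes were not analysed here. In 12 members fewer than 4 of the 8 controls are above 1 CPM, so they are in the table only through injured kidneys and their direction of change is in part fixed by that minimum. They are Ccne1, Cdc6, Cdc7, Cenph, Cenpi, Cenpu, Cenpw, Cdca7, Cdk5r1, Kif1a, Kif5a and Kif7. Counts of called members therefore do not describe all cell cycle genes. Genes missing from the table include Ccnd1, Ccnd2, Cdk4, Ccna2, Ccnb1, Mcm6, Mki67, Aurkb, Birc5 and Cdc20. Differences were tested with limma on log2(CPM + 1) over the 5672 genes that average at least 1 CPM, and a gene was called at a Benjamini-Hochberg adjusted p under 0.05. The scale understates changes of low genes. Of the 64 members 59 were tested. Cenph, Cenpi, Cenpw, Cdk5r1 and Kif1a lie below that mean. The labels of the injured kidneys were checked with 10 genes of injured tubule cells such as Havcr1 and Lcn2, whose summed level was 1500 to 1932 CPM in the controls and 15832 to 42390 CPM in the injured kidneys. In bulk tissue a change in the number of cells of a type and a change in RNA per cell cannot be told apart.

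All 6 G1 genes and 11 of the 14 S phase genes rose after each of the 3 injuries, and 11 of the 16 tested G2 and mitosis genes rose after IRI. The S phase exceptions were Mcm10, which fell after rhabdomyolysis and cisplatin, Gins3, not called after IRI, and Cdc45, not called after cisplatin. Without the members that enter the table only through injured kidneys, 5 of 5 G1 genes and 9 of 12 S phase genes rose after each injury, and 10 of 15 mitosis genes rose after IRI. Of all 52 such members 24 rose after each of the 3 injuries, as did 1769 of all 5247 such genes. In that set 34 of 52 members rose after IRI (38.5% of all such genes), 32 after rhabdomyolysis (45.6%) and 30 after cisplatin (44.7%). After IRI, 40 of the 59 tested members were called higher (40.6% of all tested genes were), 8 were called lower (40.1%) and 48 in either direction (80.7%). After rhabdomyolysis 38 were called higher (48.8% of all tested genes), 14 lower (46.5%) and 52 in either direction (95.3%). After cisplatin 35 were called higher (47.8%), 11 lower (44.0%) and 46 in either direction (91.8%), and with quantile normalization the 35 were 23. Of the 14 S phase members 12 rose and none fell after IRI, 13 rose and 1 fell after rhabdomyolysis, and 12 rose and 1 fell after cisplatin. Of the 16 tested members of G2 and mitosis 11 rose and 2 fell after IRI, 5 rose and 5 fell after rhabdomyolysis, and 5 rose and 2 fell after cisplatin. The 5 that rose after rhabdomyolysis were 3 without control 8. With all 8 controls pooled, 8 mitosis genes rose after rhabdomyolysis, 8 after cisplatin and 10 after IRI. The median log2 fold change of the 16 G2 and mitosis genes was 0.77 after IRI, 0.25 after rhabdomyolysis and 0.30 after cisplatin. The S phase median was 1.10, 0.72 and 0.73 in the same order, the G1 median 0.89, 0.72 and 0.71, and the median of all tested genes 0.08, 0.31 and 0.30. With quantile normalization, 8 S phase genes rose after rhabdomyolysis and 7 after cisplatin, and 3 and 2 mitosis genes. Calls lost there included Ccne1, Ccne2, Cdk1 and Rrm2 after rhabdomyolysis (limma adjusted p = 0.099, 0.23, 0.38 and 0.060) and Ccne1, Mcm5 and Cdc6 after cisplatin (0.18, 0.073 and 0.11).

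**Figure D1:**
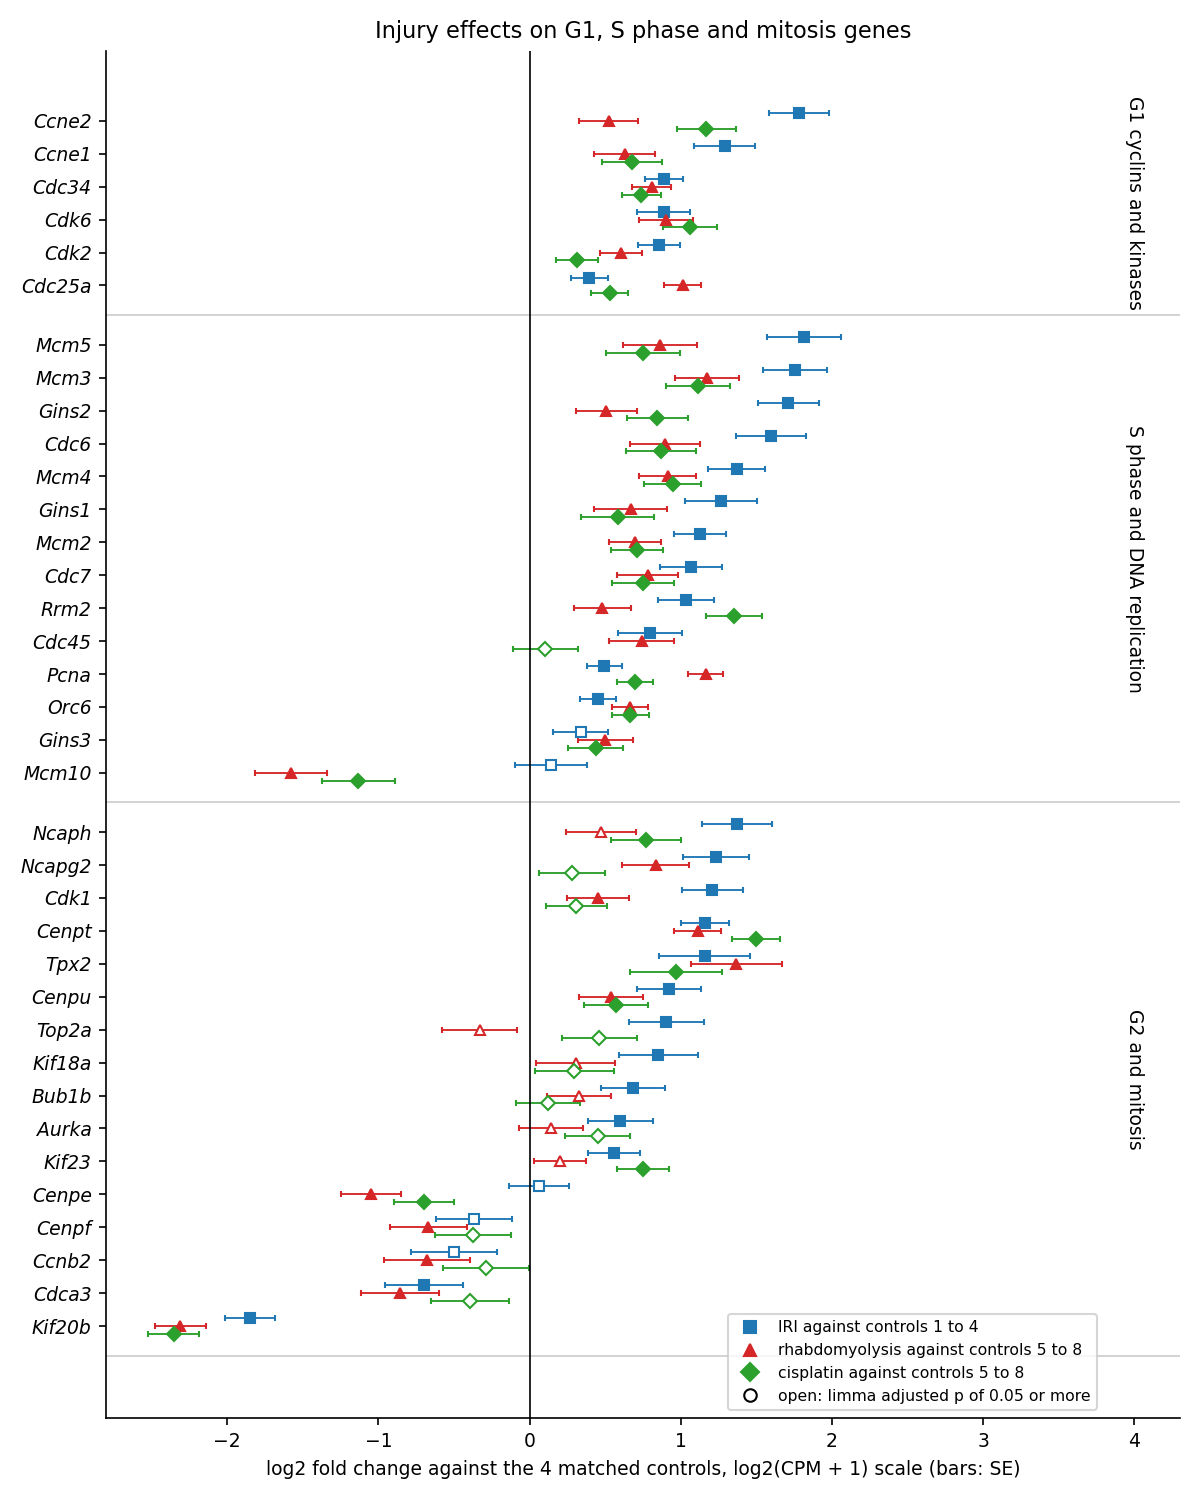
Log2 fold changes of the 36 tested G1, S phase and mitosis genes on the log2(CPM + 1) scale (x axis) for IRI (blue squares), rhabdomyolysis (red triangles) and cisplatin (green diamonds), each against its 4 matched controls. Bars are standard errors and open symbols have a limma adjusted p of 0.05 or more. The G1 and S phase genes lie to the right of 0 except Mcm10 in rhabdomyolysis and cisplatin, while the mitosis genes spread from Cenpt at 1.5 in cisplatin to Kif20b at -2.35 in cisplatin.

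The median of each phase was also taken in each kidney. The median log2(CPM + 1) over the 14 S phase genes was 2.25 to 2.80 in the 8 controls, 3.17 to 3.86 in the IRI kidneys, 2.41 to 3.04 after rhabdomyolysis and 2.88 to 3.08 after cisplatin. IRI and cisplatin kidneys lay above every control, and rhabdomyolysis kidneys overlapped the controls. The S phase median includes Cdc6 and Cdc7, which enter the table only through injured kidneys. For the 6 G1 genes the controls ran from 2.96 to 3.29 and all 12 injured kidneys lay above them, from 3.64 to 4.22. That median includes Ccne1, which enters the table only through injured kidneys. Over the other 5 genes the separation does not hold. There the median gene of control 2 (Cdk2, 12.9 CPM) lies above that of cisplatin 1 (Cdk6, 12.3 CPM). The median over the 19 mitosis genes was 0.83 to 1.59 in the controls, 1.67 to 1.86 after IRI, 1.37 to 1.67 after rhabdomyolysis and 1.58 to 1.74 after cisplatin. By it only the IRI kidneys lay wholly above the controls. It includes Cenph, Cenpi, Cenpu and Cenpw, which enter the table only through injured kidneys. Over the other 15 genes the separation does not hold. There the median gene of control 7 (Cenpt, 2.94 CPM) lies above that of IRI 1 (Kif18a, 2.88 CPM). In the median over all 19 mitosis genes, controls 1, 2 and 3 were the lowest, at 0.854, 0.883 and 0.827, against 1.59 in control 4 and 1.17 to 1.59 in controls 5 to 8. The mitosis fold changes after IRI are therefore, by these medians, taken from a lower level than those of the other injuries.

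**Figure D2:**
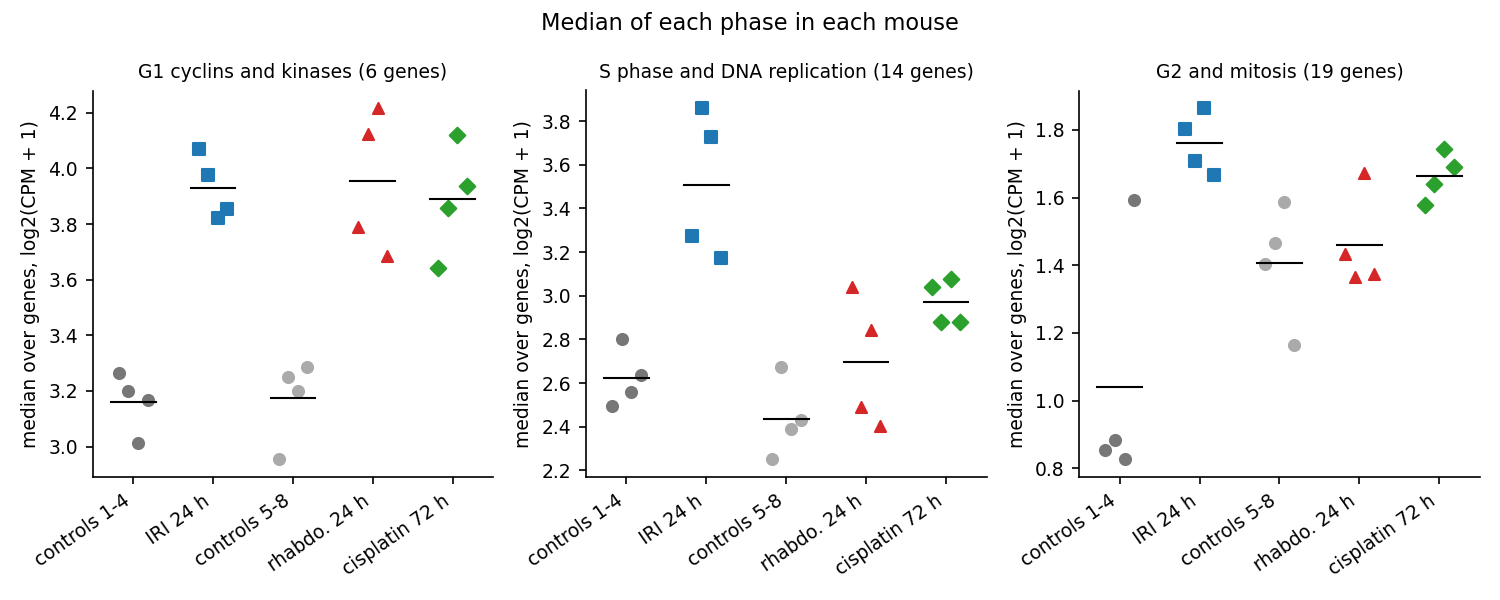
Median log2(CPM + 1) over the genes of each phase (y axis) in each of the 20 kidneys (points) by group, with group means as lines. G1 medians of all injured kidneys (3.64 to 4.22) lie above all controls (2.96 to 3.29), S phase medians are highest after IRI (3.17 to 3.86), and the control spread of the mitosis genes (0.83 to 1.59) reaches into the rhabdomyolysis and cisplatin groups. The medians include members that enter the table only through injured kidneys. Without those members, injured kidneys and controls overlap for G1, and IRI kidneys and controls overlap for mitosis.

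Among the G1 genes the E cyclins, which drive entry into S phase with CDK2, rose most after IRI. Ccne2 was at 1.88, 1.27, 0.903 and 1.58 CPM in controls 1 to 4 and at 7.61, 7.46, 10.3 and 4.46 CPM in the IRI kidneys. All IRI kidneys lay above all controls, with a log2 fold change of 1.78 (SE 0.20, limma adjusted p = 5.6e-08), and Ccne2 was at 3.26 ± 0.387 CPM (SD, n = 4) after rhabdomyolysis and 5.70 ± 0.864 after cisplatin, against 1.99 ± 0.524 in controls 5 to 8. Those smaller rises had log2 fold changes of 0.52 (limma adjusted p = 0.016, or 0.054 without control 5) and 1.17 (limma adjusted p = 1.1e-05). The exons of Ccne2 share 17.4% of their bases with Ints8 on the opposite strand, and the strand setting of the counting is not given in the sources used here.

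Ccne1, the other E cyclin and a gene that enters the table only through injured kidneys, was at 0.803 ± 0.370 CPM in the 8 controls (2 to 9 reads each) and at 3.15, 4.00, 4.02 and 2.40 CPM after IRI. It rose after all 3 injuries, by a log2 fold change of 1.29 after IRI, 0.63 after rhabdomyolysis and 0.68 after cisplatin (limma adjusted p = 6.6e-06, 0.0055 and 0.0034). Its kinase Cdk2 reached 21.5 ± 1.53 CPM after IRI, 16.2 ± 2.1 after rhabdomyolysis and 13.1 ± 2.17 after cisplatin, from 11.5 ± 1.39 and 10.3 ± 1.30 in the respective controls, and the cisplatin values overlapped those of the controls. Cdk6, a kinase of the D cyclins, rose after each injury, to 11.3 ± 1.66, 13.3 ± 3.30 and 14.8 ± 2.59 CPM from 5.61 ± 0.733 and 6.6 ± 1.40 CPM in the respective controls.

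Cdc25a, the phosphatase that removes inhibitory phosphates from CDK2, showed another order. It was at 18.1 ± 1.47 CPM after IRI, 24.6 ± 2.22 after rhabdomyolysis and 17.3 ± 1.06 after cisplatin, against 13.6 ± 1.72 in controls 1 to 4 and 11.8 ± 1.49 in controls 5 to 8. Its effect in rhabdomyolysis (log2 fold change 1.01) was larger than in IRI (0.40), with a log2 difference of -0.62 between the IRI and rhabdomyolysis effects (limma adjusted p = 0.0054). Cdc34, a ubiquitin-conjugating enzyme used to mark CDK inhibitors for degradation, rose to 96.3 ± 3.56, 93.9 ± 8.63 and 89.5 ± 10.9 CPM after IRI, rhabdomyolysis and cisplatin, and every injured kidney lay above every matched control.

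In S phase the 4 helicase genes Mcm2, Mcm3, Mcm4 and Mcm5 rose after every injury. Mcm5 was at 6.59, 8.30, 6.07 and 6.47 CPM in controls 1 to 4 and at 23.6, 32.1, 37.4 and 17.3 CPM in the IRI kidneys. The groups did not overlap, and the log2 fold change was 1.82 (SE 0.25, limma adjusted p = 1.1e-06). Controls 5 to 8 held 6.26, 7.70, 5.08 and 4.97 CPM, the rhabdomyolysis kidneys 14.2, 11.6, 18 and 5.90 CPM and the cisplatin kidneys 11.3, 10.8, 12.1 and 8.62 CPM. Rhabdomyolysis 4 lay within its controls, and the log2 fold changes were 0.86 after rhabdomyolysis and 0.75 after cisplatin (limma adjusted p = 0.0023 and 0.0072).

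The other helicase subunits of the table had, like Mcm5, their largest mean rise after IRI, and the tests of those differences are given with the comparison of injuries. Mcm3 was 3.91-fold its control mean after IRI, 2.61-fold after rhabdomyolysis and 2.40-fold after cisplatin, with 21.2 ± 5.76, 11.4 ± 3.70 and 10.5 ± 0.785 CPM. Mcm4 was 2.75-fold, 2.02-fold and 2.05-fold its control mean, and Mcm2 2.28-fold, 1.67-fold and 1.68-fold. Mcm2 lay at 10.6 to 17.4 CPM in the 8 controls and at 19.4 to 41.6 CPM in the 12 injured kidneys, with no overlap. In Mcm2, Mcm3, Mcm4 and Mcm5 alike, IRI 4 was the lowest IRI kidney and rhabdomyolysis 4 the lowest rhabdomyolysis kidney.

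The genes that load and fire the helicase differed in their control levels. Cdc6, which loads the helicase with ORC, had 0 to 5 reads in each control, or 0 to 0.704 CPM, and reached 3.93, 3.60, 3.67 and 1.72 CPM after IRI. It reached 1.23, 1.18, 2.19 and 1.14 CPM after rhabdomyolysis and 1.75, 1.41, 1.90 and 0.581 CPM after cisplatin, where cisplatin 4 overlapped the controls. Its log2 fold changes were 1.60, 0.90 and 0.87 (limma adjusted p = 2.5e-06, 0.00095 and 0.0014). Cdc6 enters the table only through injured kidneys, as does Cdc7, so their direction of change is in part fixed by the table's minimum. Cdc7, the kinase that activates the loaded helicase, rose from 0.245 ± 0.220 CPM to 1.59 ± 0.300 after IRI and from 0.430 ± 0.381 to 1.46 ± 0.654 after rhabdomyolysis and 1.36 ± 0.226 after cisplatin. Orc6, a subunit of the origin recognition complex, rose less, 1.40-fold after IRI, 1.67-fold after rhabdomyolysis and 1.66-fold after cisplatin, without overlap with matched controls.

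Of the GINS genes, whose products join the active helicase, Gins2 rose to 7.21, 13.6, 11.4 and 6.52 CPM after IRI from 1.83 to 2.73 CPM in controls 1 to 4. It was at 3.44 ± 0.829 CPM after rhabdomyolysis and 4.54 ± 0.342 after cisplatin, against 2.14 ± 0.720 in controls 5 to 8. Its exons share 67.3% of their bases with Gse1 on the opposite strand, and Gse1 itself was at 23.0 ± 7.83 CPM in controls (n = 8), 34.3 ± 3.42 after IRI, 43.1 ± 5.87 after rhabdomyolysis and 44.3 ± 1.45 after cisplatin. How far reads of Gse1 enter Gins2 was not tested. Gins1 was 3.70-fold, 2.20-fold and 2.03-fold its control mean after IRI, rhabdomyolysis and cisplatin. Gins3 did not pass the test after IRI (log2 fold change 0.34, limma adjusted p = 0.092) and rose after rhabdomyolysis (0.50, limma adjusted p = 0.013) and cisplatin (0.44, limma adjusted p = 0.028). Cdc45 rose after IRI and rhabdomyolysis, to 4.17 ± 1.03 and 2.90 ± 0.422 CPM, and was at 1.57 ± 0.651 CPM after cisplatin against 1.36 ± 0.428 in its controls (limma adjusted p = 0.63).

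Mcm10, which joins the helicase when origins fire, was the S phase member that fell. It was at 4.28, 5.29, 3.74 and 8.01 CPM in controls 5 to 8, at 0.662, 0.690, 1.71 and 1.36 CPM after rhabdomyolysis and at 2.68, 1.11, 1.79 and 1.84 CPM after cisplatin. Both injuries lay wholly below the controls, with log2 fold changes of -1.58 (SE 0.24, limma adjusted p = 2.0e-06) and -1.13 (limma adjusted p = 0.00015). After IRI it was at 4.85, 6.26, 9.41 and 4.46 CPM, overlapping its controls at 4.17 to 6.58 CPM, with a log2 fold change of 0.14 (limma adjusted p = 0.59).

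Pcna and Rrm2 did not follow the order of the helicase genes. Pcna was at 40.7 to 58.1 CPM in the 8 controls, at 75, 81.2, 72.8 and 64.2 CPM after IRI, at 89.2, 93.8, 98.2 and 115 CPM after rhabdomyolysis and at 59.5, 77.1, 77.2 and 72.2 CPM after cisplatin. No injured kidney overlapped the controls, and the log2 fold changes were 0.49, 1.16 and 0.70 (limma adjusted p = 0.00061, 3.6e-09 and 9.6e-06). Rrm2 was highest after cisplatin, at 15.1, 18.6, 19.1 and 18.7 CPM, against 5.25 to 8.50 CPM in controls 5 to 8, a log2 fold change of 1.35 (limma adjusted p = 7.3e-07). Rrm2 was at 13.1 ± 3.60 CPM after IRI and 9.41 ± 1.90 after rhabdomyolysis. Its rise after rhabdomyolysis had a log2 fold change of 0.48 (limma adjusted p = 0.018, or 0.060 without control 8 and 0.063 without rhabdomyolysis 1).

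**Figure D3:**
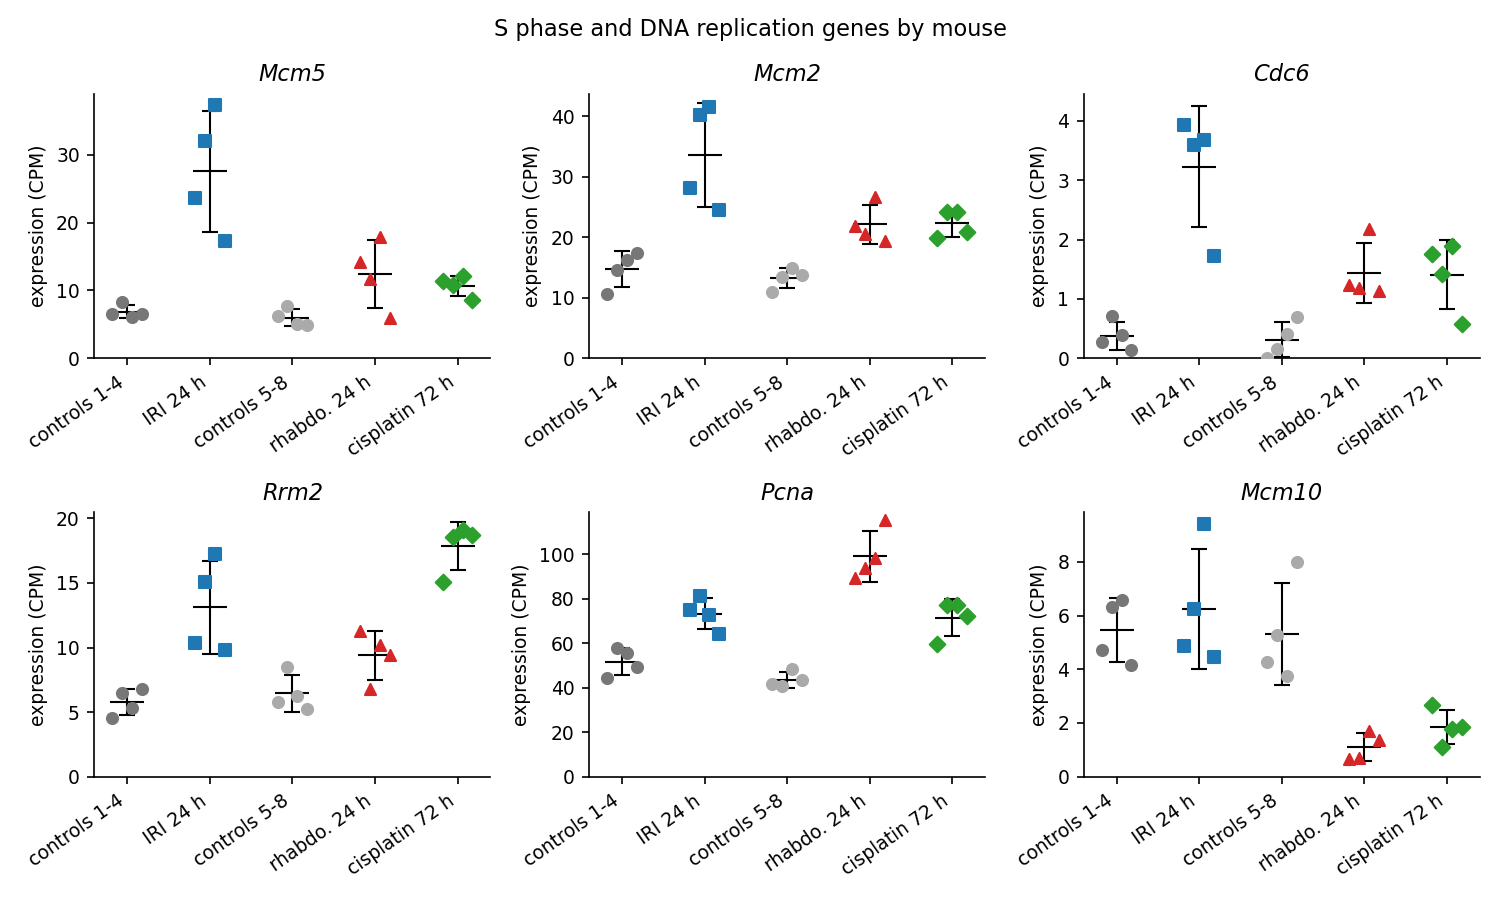
Expression in CPM (y axis, from 0) of 6 S phase genes in each kidney (points), with the mean and SD of each group of 4 as black bars. Mcm5, Mcm2 and Cdc6 are highest after IRI, Rrm2 after cisplatin (15.1 to 19.1 CPM) and Pcna after rhabdomyolysis (89.2 to 115 CPM), while Mcm10 falls below all of controls 5 to 8 after rhabdomyolysis and cisplatin. Cdc6 enters the table only through injured kidneys.

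The G2 and mitosis genes divided. Cdk1, the kinase of mitotic entry, was at 0.807, 1.13, 1.03 and 2.88 CPM in controls 1 to 4 and at 4.59, 5.46, 3.79 and 4.00 CPM after IRI. All IRI kidneys lay above all controls, including control 4, and the log2 fold change was 1.21 (SE 0.20, limma adjusted p = 1.8e-05). It was at 2.74 ± 0.637 CPM after rhabdomyolysis and 2.39 ± 0.566 after cisplatin, against 1.71 ± 0.130 in controls 5 to 8. The rise after rhabdomyolysis was called (log2 fold change 0.45, limma adjusted p = 0.040) but not without any one of controls 5, 6, 7 and 8 or of rhabdomyolysis 1, 3 and 4 (limma adjusted p = 0.053 to 0.11). After cisplatin the log2 fold change was 0.31 (limma adjusted p = 0.15).

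Condensin genes, whose products compact chromosomes, rose after IRI. Ncaph went from 0.800 ± 0.408 to 3.62 ± 0.761 CPM and Ncapg2 from 3.00 ± 1.37 to 8.19 ± 2.07 CPM, with no overlap of the groups. After rhabdomyolysis Ncapg2 rose 2.04-fold, to 6.12 ± 1.36 CPM from 3.00 ± 0.785 and above every control, and Ncaph was at 1.76 ± 0.583 CPM against 1.06 ± 0.690 (limma adjusted p = 0.057). After cisplatin Ncaph rose, to 2.34 ± 0.244 CPM from 1.06 ± 0.690, and Ncapg2 was at 3.83 ± 0.690 CPM (limma adjusted p = 0.22). Top2a, the topoisomerase that untangles sister chromosomes, was at 4.85, 4.93, 7.46 and 2.63 CPM after IRI and at 2.56, 0.845, 2.71 and 2.59 CPM in controls 1 to 4. IRI 4 overlapped the controls, and the log2 fold change was 0.90 (limma adjusted p = 0.0024). Top2a was at 2.70 ± 0.987 CPM after rhabdomyolysis and 5.34 ± 1.23 after cisplatin, against 3.56 ± 0.393 in controls 5 to 8, and neither passed the test (limma adjusted p = 0.20 and 0.083).

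The kinetochore gene Cenpt, which links the centromere to spindle microtubules, rose after every injury. It was at 1.60 to 3.13 CPM in the 8 controls, at 5.61 to 6.43 CPM after IRI, at 5.79 to 6.84 CPM after rhabdomyolysis and at 7.82 to 10.8 CPM after cisplatin. No injured kidney overlapped the controls, and the log2 fold changes were 1.16, 1.11 and 1.5 (limma adjusted p = 1.1e-06, 8.1e-07 and 1.5e-08). Tpx2, which activates Aurora A on the spindle, also rose after each injury, to 3.54 ± 1.53 CPM after IRI, 7.17 ± 2.48 after rhabdomyolysis and 5.03 ± 0.926 after cisplatin, although IRI kidneys overlapped controls that ran from 0 to 2.59 CPM. Cenpu, another kinetochore gene, which also enters the table only through injured kidneys, was the remaining mitosis member called higher after each injury (log2 fold changes 0.92, 0.54 and 0.57), and 26.7% of its exon bases lie opposite Primpol exons. The kinase genes Aurka and Bub1b and the kinesin gene Kif18a rose after IRI, with log2 fold changes of 0.60, 0.68 and 0.85, and did not pass the test after rhabdomyolysis or cisplatin. Kif23, a kinesin of cell separation, rose after IRI (log2 fold change 0.56) and cisplatin (0.75) and was at 2.06 ± 0.552 CPM after rhabdomyolysis against 1.65 ± 0.429 in its controls.

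Other mitosis genes fell or did not change beyond their spread. Ccnb2, a B cyclin, was at 0.538, 0.704, 0.774 and 2.30 CPM in controls 1 to 4 and at 1.32, 2.57, 3.21 and 0.552 CPM in controls 5 to 8, a spread of 4 to 24 reads. It was at 0.393, 0.400, 0.344 and 0.458 CPM after IRI, below every control with 3 or 4 reads in each kidney, yet the log2 fold change of -0.50 did not pass the test (limma adjusted p = 0.11). It fell after rhabdomyolysis (log2 fold change -0.68, limma adjusted p = 0.029), with overlapping groups, and was not called after cisplatin (limma adjusted p = 0.33). Cdca3, which helps to trigger mitotic entry, fell after IRI and rhabdomyolysis, to 1.21 ± 0.568 and 1.08 ± 0.550 CPM from 2.56 ± 0.713 and 2.79 ± 0.972 CPM. Both groups overlapped their controls. IRI 4 held 2.06 CPM, above control 3 at 1.68 CPM, and rhabdomyolysis 2 held 1.87 CPM, above control 8 at 1.38 CPM.

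Cenpe, a kinesin that carries chromosomes to the spindle equator, was at 5.93, 3.69, 3.21 and 3.31 CPM in controls 5 to 8, at 1.32, 1.08, 2.28 and 1.02 CPM after rhabdomyolysis and at 1.63, 1.82, 2.46 and 2.32 CPM after cisplatin. Both injuries lay below all 4 controls (log2 fold changes -1.05 and -0.70, limma adjusted p = 3.9e-05 and 0.0025). After IRI it was at 2.45 ± 0.422 CPM against 2.34 ± 0.672 (limma adjusted p = 0.78). Cenpf, a kinetochore protein, fell after rhabdomyolysis (log2 fold change -0.67, limma adjusted p = 0.016) and had log2 fold changes of -0.37 after IRI and -0.37 after cisplatin, which did not pass (limma adjusted p = 0.18 and 0.16).

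Kif20b, a kinesin of the late steps of cell division, fell most of the 64 members. It was at 21.9, 22.0, 14.3 and 17.8 CPM in controls 1 to 4 and at 22.2, 18.9, 24.6 and 19.5 CPM in controls 5 to 8. The IRI kidneys held 4.59, 4.13, 5.28 and 4.00 CPM, the rhabdomyolysis kidneys 3.31, 2.86, 4.47 and 3.41 CPM and the cisplatin kidneys 4.55, 2.83, 2.57 and 3.68 CPM. Every injured kidney lay below every control, by a mean factor of 4.22 after IRI, 6.07 after rhabdomyolysis and 6.25 after cisplatin (log2 fold changes -1.85, -2.31 and -2.35, limma adjusted p = 3.0e-09, 2.1e-11 and 2.9e-11).

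**Figure D4:**
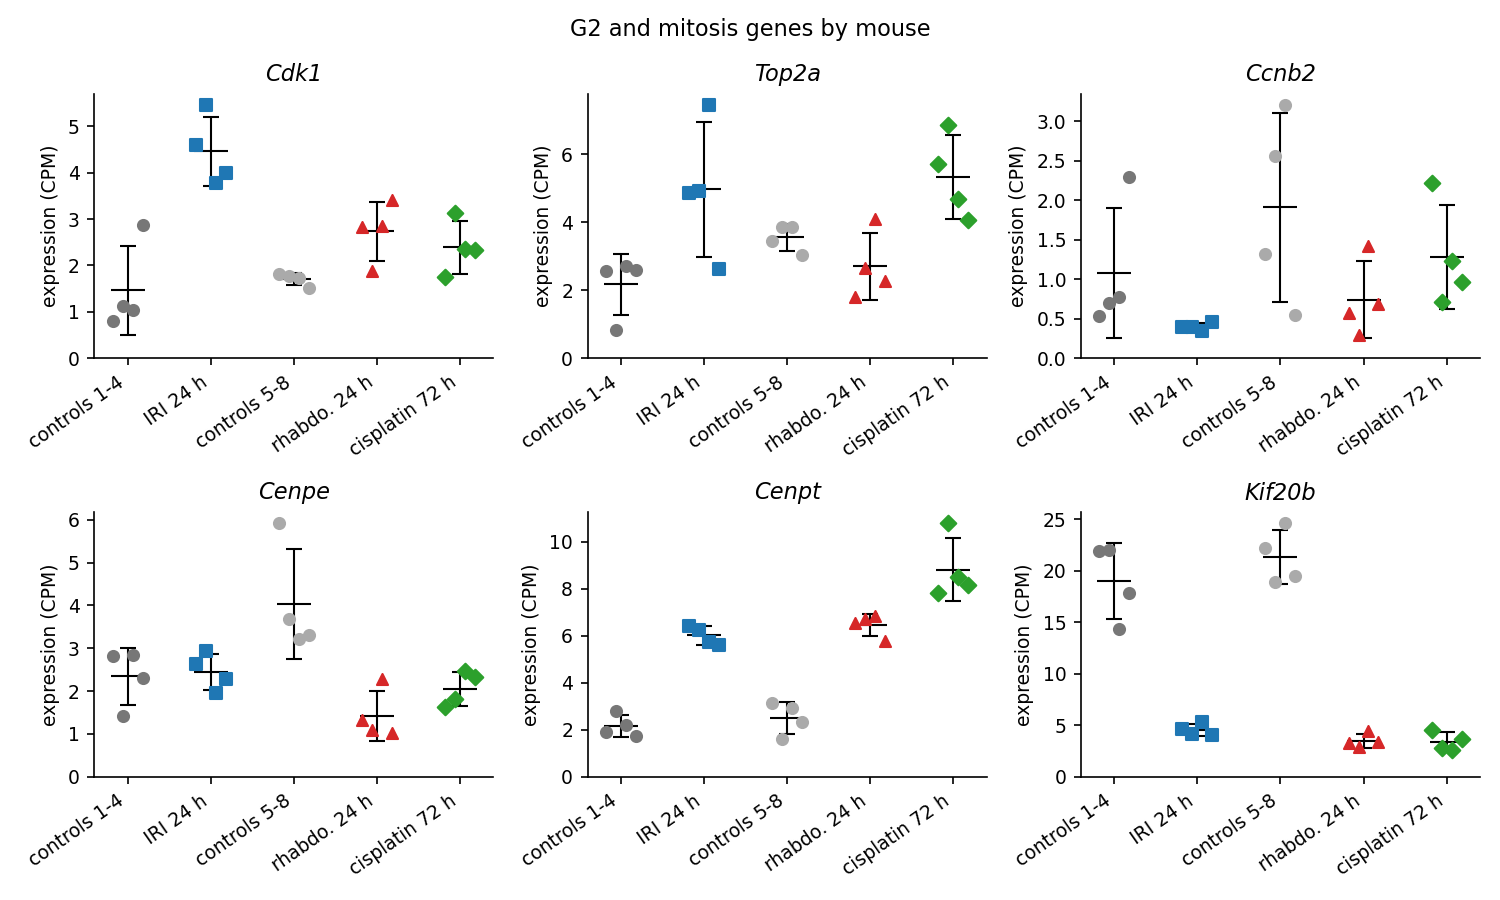
Expression in CPM (y axis, from 0) of 6 G2 and mitosis genes in each kidney (points), with the mean and SD of each group of 4 as black bars. Cdk1 is highest after IRI (3.79 to 5.46 CPM), Cenpt rises after every injury, Ccnb2 varies from 0.538 to 3.21 CPM among controls, and Kif20b falls from 14.3 to 24.6 CPM in controls to at most 5.28 CPM after injury.

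The 3 untested mitosis members are kinetochore and centromere genes. All 3 enter the table only through injured kidneys, so their direction of change is in part fixed by the table's minimum. Cenpi was at 0 to 0.645 CPM in the 8 controls and at 1.44, 1.86, 2.18 and 1.14 CPM after IRI, without overlap. Cenph was at 1.27 ± 0.515 CPM and Cenpw at 1.41 ± 0.519 CPM after IRI, against 0.482 ± 0.101 and 0.607 ± 0.256 in controls 1 to 4. Cenpw was at 0.946 ± 0.0678 CPM after rhabdomyolysis and 1.32 ± 0.439 after cisplatin, against 0.444 ± 0.296 in controls 5 to 8, and lay above those controls in both, whereas the IRI kidneys overlapped theirs. Over all 64 members, the 4 injured values lay above the 4 matched controls in 37 after IRI (33.5% of the 6025 genes did), 35 after rhabdomyolysis (44.7%) and 31 after cisplatin (44.3%). They lay below in 6 after IRI (34.2% of genes), 11 after rhabdomyolysis (43.0%) and 11 after cisplatin (39.9%). These counts include the 12 members that enter the table only through injured kidneys and were not repeated without them.

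The size of the effects was then compared between injuries. Between the injuries both sampled at 24 h, the IRI effect was called higher than the rhabdomyolysis effect in 12 of 59 members (28.6% of all tested genes) and lower in 11 (23.4%), or 23 in either direction (52.0%). With all 8 controls pooled the 12 were 20, and leaving out 1 kidney at a time they ranged from 9 to 17 (without IRI 4). Among the 36 tested G1, S phase and mitosis genes, 8 were called higher in IRI and 2 lower. The 8, by their log2 difference, were Mcm10 (1.72), Ccne2 (1.26), Top2a (1.23), Gins2 (1.2), Cenpe (1.11), Mcm5 (0.95), Ncaph (0.90) and Cdk1 (0.76), with limma adjusted p from 0.00027 for Mcm10 to 0.032 for Cdk1. Of these, Mcm10 and Cenpe fell after rhabdomyolysis and were not called after IRI. Pcna (log2 difference -0.67, limma adjusted p = 0.0019) and Cdc25a were the 2 with the larger rise after rhabdomyolysis. The differences of Mcm5 and Cdk1 did not pass with edgeR on the recovered reads (adjusted p = 0.053 and 0.086). Nor did that of Mcm5 without control 6, IRI 2, IRI 3 or rhabdomyolysis 4 (limma adjusted p = 0.055 to 0.068), or that of Cdk1 without control 1, 2, 3 or 5, IRI 2 or rhabdomyolysis 2 (0.051 to 0.077).

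Against the cisplatin effect, the IRI effect was called higher in 11 members (13.5% of all tested genes) and lower in 5 (16.8%), or 16 in either direction (30.3%). With quantile normalization the split over all genes turned from 763 higher and 953 lower to 1094 higher and 872 lower, and 18 members were called higher. With all 8 controls pooled 17 members were higher and 8 lower, and with DESeq2 6 and 2. Of the 36 cell cycle genes 7 were called higher and none lower: Mcm10 (log2 difference 1.27), Mcm5 (1.07), Ncapg2 (0.95), Cdk1 (0.90), Gins2 (0.87), Cenpe (0.76) and Cdk2 (0.54), with limma adjusted p between 0.0066 and 0.045. The count of 11 fell to 6 without control 6, to 7 without IRI 2 and to 6 with edgeR on the recovered reads. The Mcm5 difference did not pass without control 6, IRI 2 or IRI 3 (limma adjusted p = 0.052 to 0.062), nor that of Cdk1 without control 1 (0.052) or with edgeR (adjusted p = 0.053). The rises of Mcm2, Mcm3, Mcm4 and Cdc6, although larger after IRI by mean, did not pass the test of the difference from the rhabdomyolysis effect (limma adjusted p = 0.14, 0.11, 0.15 and 0.077) or the cisplatin effect (0.20, 0.11, 0.24 and 0.095). Without IRI 4 the Cdc6 differences passed (limma adjusted p = 0.020 and 0.027).

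Rhabdomyolysis at 24 h was compared with cisplatin at 72 h directly. Rhabdomyolysis was called higher than cisplatin in 15 members (21.4% of all tested genes) and lower in 7 (32.7%), or 22 in either direction (54.1%). Over all genes 1215 were higher and 1853 lower, against 1693 and 1583 with quantile normalization and 1547 and 1559 with DESeq2, which called 3 members lower instead of 7. Among the 36 cell cycle genes 4 were higher and 5 lower. Pcna (log2 difference 0.47), Cdc25a (0.48), Cdc45 (0.64) and Ncapg2 (0.55) were higher after rhabdomyolysis. Rrm2 (-0.87, limma adjusted p = 0.00045), Top2a (-0.79), Ccne2 (-0.65), Kif23 (-0.55) and Cenpt (-0.39) were lower. The Cenpt difference had a limma adjusted p of 0.042 and did not pass without any one of the 4 rhabdomyolysis kidneys or of cisplatin 2, 3 and 4 (0.052 to 0.14). The difference of Mcm5 between rhabdomyolysis and cisplatin was 0.11 on the log2 scale (SE 0.25), that of Mcm2 -0.01 (SE 0.17) and that of Mcm4 -0.03 (SE 0.19).

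The members that share a name with the cycle families but were listed under other functions were called in both directions, as were all genes of the table. Of the 23 tested, 11 rose and 6 fell after IRI (40.6% and 40.1% of all tested genes did), 14 rose and 8 fell after rhabdomyolysis (48.8% and 46.5%), and 12 rose and 8 fell after cisplatin (47.8% and 44.0%). Cdca7, which recruits a chromatin remodeller to DNA and has 1 control above 1 CPM, rose from 0.258 to 1.13 CPM in the 8 controls to 5.38, 8.12, 6.20 and 2.86 CPM after IRI, 6.24, 2.56, 7.41 and 1.14 after rhabdomyolysis and 3.39, 2.62, 4.25 and 1.26 after cisplatin. Cdc42ep4, an effector of the GTPase CDC42 that shapes the actin cytoskeleton, rose 1.59-fold after IRI, 3.65-fold after rhabdomyolysis and 2.90-fold after cisplatin. Cdk17, a kinase best known from neurons, rose 1.44-fold, 3.26-fold and 2.35-fold, and Cdk12, which phosphorylates RNA polymerase II, 2.31-fold after rhabdomyolysis, against 1.12-fold after IRI (not called). Kif9, a kinesin of motile cilia, fell by a factor of 3.50, 5.37 and 2.14 after IRI, rhabdomyolysis and cisplatin. Kif12 and Kif27, both linked to cilia, fell after rhabdomyolysis (log2 fold changes -1.53 and -1.15) and cisplatin (-1.41 and -1.06) and were not called after IRI (-0.17 and 0.29).

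**Figure D5:**
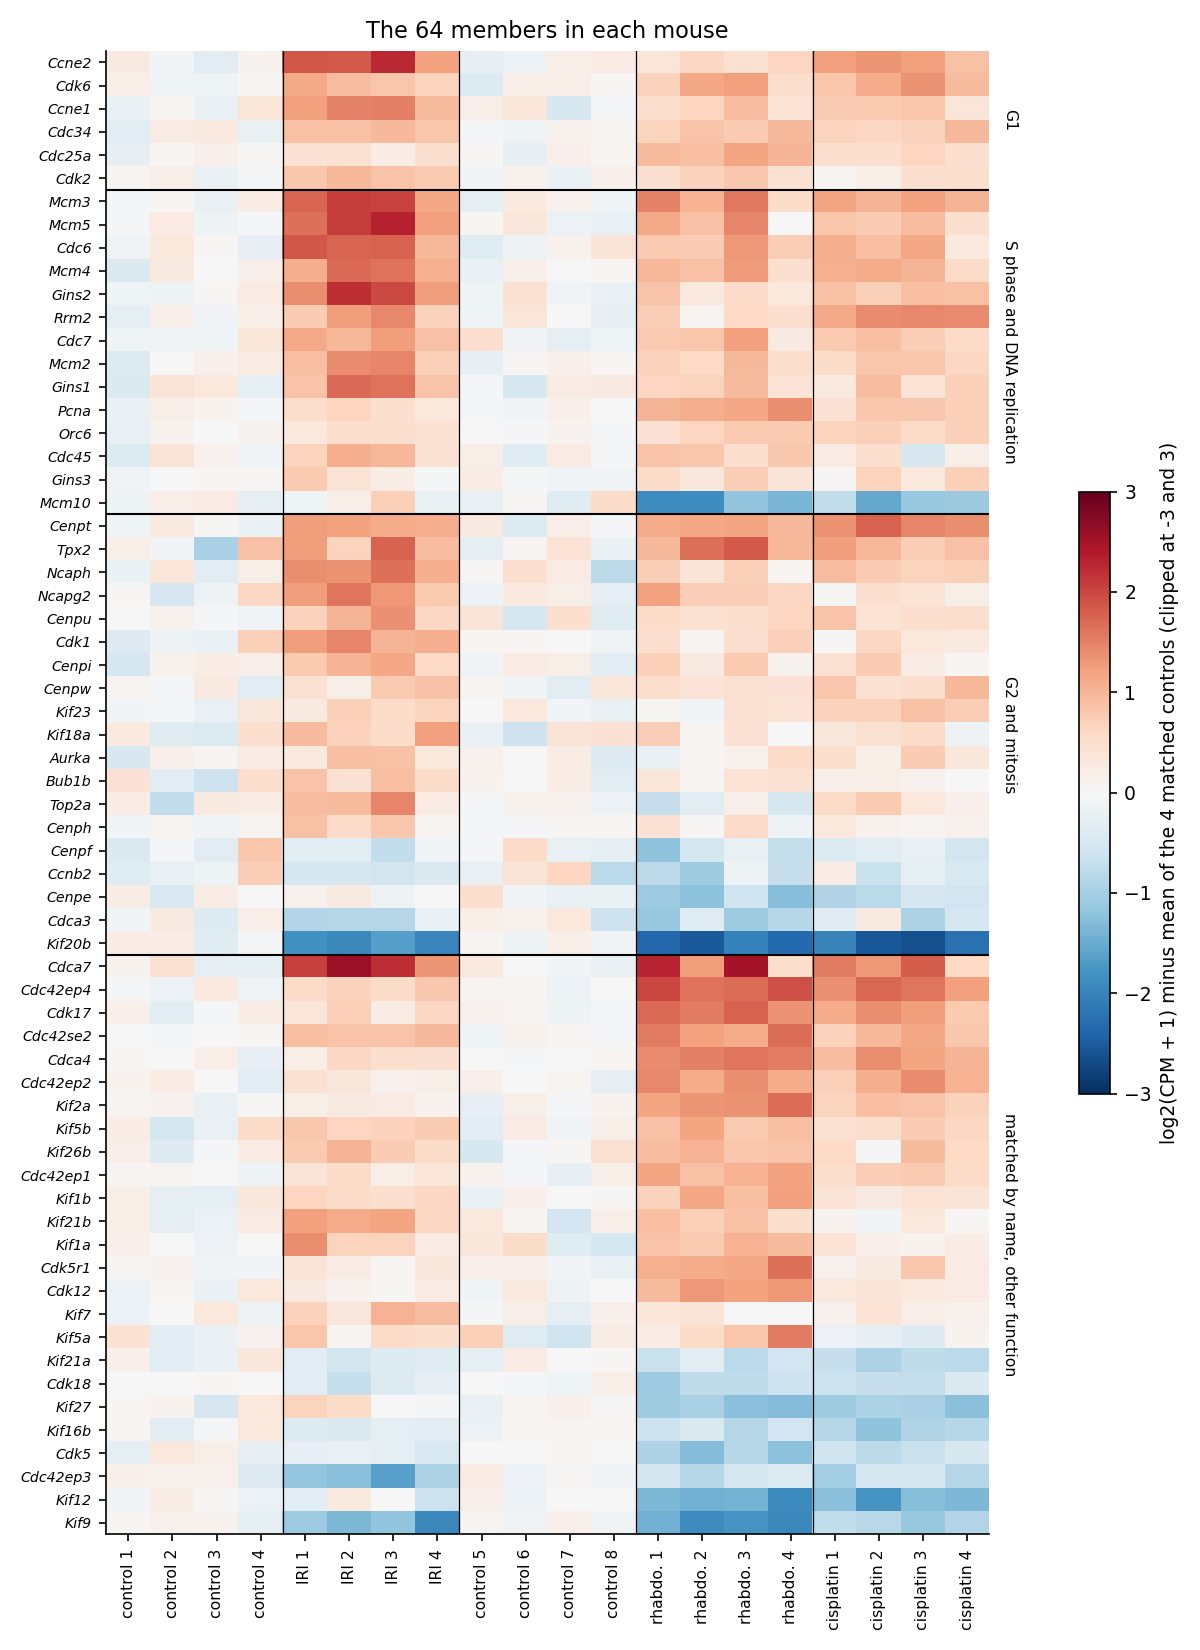
Log2(CPM + 1) of the 64 members in each of the 20 kidneys, minus the mean of the 4 matched controls (red higher, blue lower), with genes grouped by function and kidneys by group. The G1 and S phase rows are red in nearly all injured kidneys, Kif20b is blue in all 12, and Mcm10, Cenpe, Kif12 and Kif27 are blue after rhabdomyolysis and cisplatin.

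Genes of the same pathways outside the name rule were read from lists of textbook genes. Of 18 replication genes in the table, 17 rose and 1 fell after IRI (40.6% and 40.1% of all tested genes did), 13 rose and 1 fell after rhabdomyolysis (48.8% and 46.5%), and 13 rose and 1 fell after cisplatin (47.8% and 44.0%). The IRI effect was called higher than the rhabdomyolysis effect in 7 of them (28.6% of all tested genes) and higher than the cisplatin effect in 7 (13.5%). Uhrf1, which maintains DNA methylation behind the fork, went from 1.80 ± 0.714 CPM in controls (n = 8) to 20.3 ± 7.76 after IRI, 11.5 ± 5.20 after rhabdomyolysis and 8.61 ± 1.80 after cisplatin.

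Of 16 tested mitosis genes outside the rule, 12 rose and 1 fell after IRI, 11 rose and 4 fell after rhabdomyolysis, and 13 rose and 2 fell after cisplatin, against the same shares of all tested genes. Without the genes that enter the table only through injured kidneys, which include Gtse1 and Ckap2, 7, 6 and 8 of 11 rose (38.5%, 45.6% and 44.7% of all such genes). Of the replication list 14, 13 and 10 of 15 then rose. Gtse1, a G2 protein that binds p53, rose most after cisplatin, from 0.866 ± 0.508 CPM in controls to 38.3 ± 3.81, against 3.87 ± 1.49 after IRI and 4.43 ± 0.529 after rhabdomyolysis. Ckap2, a microtubule protein of the spindle, reached 13.6 ± 1.51 CPM after cisplatin, 3.48 ± 0.678 after IRI and 2.08 ± 0.603 after rhabdomyolysis, from 0.804 ± 0.428 in controls.

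Regulators of the cycle outside the name rule (the retinoblastoma proteins, E2F factors and CDK inhibitors) were called in both directions. Cdkn1a, which encodes the CDK inhibitor p21, was at 4.41 ± 1.17 CPM in the 8 controls, 77 ± 16.5 after IRI, 394 ± 89.9 after rhabdomyolysis and 1110 ± 128 after cisplatin. Ccng1, a p53 target that feeds back on it, was called after cisplatin (log2 fold change 2.21) and not after IRI (0.12) or rhabdomyolysis (-0.20). E2f1, a driver of S phase genes, rose after IRI to 11.6 ± 4.12 CPM from 4.40 ± 0.682 in controls 1 to 4 and was at 4.13 ± 1.05 CPM after rhabdomyolysis and 5.70 ± 0.757 after cisplatin, where it was not called. Rbl2, which encodes the retinoblastoma-related protein p130 of resting cells, fell from 121 ± 5.41 CPM to 74.3 ± 8.50, 41.1 ± 2.45 and 60.6 ± 6.49 CPM. Cdkn2c, an inhibitor of the G1 kinases, fell after IRI to 8.08 ± 1.43 CPM from 13.6 ± 2.54 and after rhabdomyolysis to 4.06 ± 0.845 CPM from 11.9 ± 0.879, and was at 9.35 ± 1.38 CPM after cisplatin (limma adjusted p = 0.064). Of the 13 tested genes of this list 8 rose and 3 fell after IRI, 8 rose and 3 fell after rhabdomyolysis, and 8 rose and 2 fell after cisplatin. Of 17 tested DNA damage checkpoint genes 12 rose and 1 fell, 14 rose and 1 fell, and 15 rose and 1 fell. Over all tested genes 40.6% rose and 40.1% fell after IRI, 48.8% and 46.5% after rhabdomyolysis, and 47.8% and 44.0% after cisplatin. Without genes that enter the table only through injured kidneys, the first list had 7, 7 and 7 of 12 genes higher. Of that list 6 genes rose after all 3 injuries. Of 15 checkpoint genes 10, 12 and 13 then rose, against 38.5%, 45.6% and 44.7% of all such genes.

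Markers of other cell types moved with the injuries, and their part in the cell cycle results was not tested. The 12 of 16 macrophage and monocyte markers in the table summed to 103 to 145 CPM in controls, 179 to 230 after IRI, 172 to 386 after rhabdomyolysis and 296 to 423 after cisplatin. The 8 of 9 neutrophil markers summed to 3.24 to 6.09 CPM in controls, 18.5 to 34.4 after IRI, 29.9 to 59.4 after rhabdomyolysis and 25.4 to 54.6 after cisplatin. Fibroblast and pericyte markers (8 of 9) summed to 152 to 290 CPM in controls, 628 to 700 after IRI, 734 to 1792 after rhabdomyolysis and 370 to 901 after cisplatin. The 5 of 9 endothelial markers ran from 247 to 479 CPM in controls, 462 to 532 after IRI, 805 to 1187 after rhabdomyolysis and 508 to 747 after cisplatin. The fibroblast and endothelial sums of the IRI kidneys lay wholly below those of the rhabdomyolysis kidneys, and the macrophage and neutrophil sums of the 2 injuries overlapped. The 2 of 12 lymphocyte markers present (Cd8a and Cd79a) stayed at or below 3.73 CPM in all kidneys. The 12 proximal tubule markers summed to 36609 to 61464 CPM in controls and 5873 to 17990 CPM after injury, and the 7 red blood cell genes to 1170 to 2970 CPM in controls, 1066 to 1705 after IRI, 394 to 512 after rhabdomyolysis and 7.60 to 21.5 after cisplatin.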

How the data were processed

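RNA of kidney cortex from 20 mice was sequenced as poly-A selected, stranded libraries in 150-base pairs, per the labels' protocols. Submitters' processing notes name FastQC, Bowtie2 2.1.0, RSEM 1.2.15, edgeR and the builds GRCm38 and mm10, with no role or order. The authors deposited 1 table of CPM for 6025 genes. In all 20 libraries every value was a whole multiple of 1 step, to within 0.01 of a step, which gives the reads. Cisplatin 2, whose step lies near 0.1 CPM, was left out of count tests only. The reads in the table make up 42.1% to 70.6% of the library size that each step implies, and tests see no genes outside the table.

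The main test was limma 3.58.1 (trend) in R 4.3.3 on log2(CPM + 1), with 353 genes averaging under 1 CPM left out, 1 fit over 5 groups of 4 (controls 1 to 4 and 5 to 8 apart) and Benjamini-Hochberg adjustment over all 5672 tested genes. Controls 5 to 8 against controls 1 to 4 gave 0 called genes with limma (454 at an unadjusted p under 0.05, of which 7 were members). Scripts were tested on simulated data. Alternatives included edgeR 4.0.16 and DESeq2 1.42.0 on recovered reads. Members and lists were chosen with earlier results of these data known. Named genes were 19 textbook names, of which 9 are in the table, and the 3 largest called changes each way in every comparison, 26 members in all. Other members given with values were named after their values were seen, to cover each function. Gene positions and overlaps came from GENCODE M21 and promoters from RefSeq, both GRCm38. Replicate numbers did not pair samples. 1 gene counted in the replication list is not reported here by name or value.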

Additional observations from a re-analysis of the deposited data

Results flagged for a closer look

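Among 104 groups of named members (26 genes in 4 groups), 6 held a kidney far from the others, where about 1 in 20 groups would by chance. The gap to the nearest kidney, divided by the range of its group, was 0.840 for Ccne1 in cisplatin 4 (1.26 CPM), 0.869 for Rrm2 in cisplatin 1 (15.1 CPM), 0.848 for Cdc6 in IRI 4 (1.72 CPM) and 0.911 for Cdc6 in rhabdomyolysis 3 (2.19 CPM). It was 0.565 for Top2a in control 2 (0.845 CPM) and 0.831 for Kif12 in rhabdomyolysis 4 (21.3 CPM).

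The effects of injuries differed in limma's test of the difference for the following named members. For IRI minus rhabdomyolysis the log2 differences were 1.72 for Mcm10, 1.44 for Kif27, 1.36 for Kif12, 1.26 for Ccne2, 1.23 for Top2a, 0.95 for Mcm5 and 0.76 for Cdk1. They were -0.66 for Cdc42ep3, -0.67 for Pcna, -0.99 for Cdc42ep2, -1.02 for Cdk12, -1.08 for Cdca4, -1.12 for Cdk17, -1.16 for Cdc42ep4 and -1.19 for Kif2a. The exons of Kif2a share 19.2% of their bases with Dimt1 on the opposite strand. For IRI minus cisplatin the log2 differences were 1.35 for Kif27, 1.27 for Mcm10, 1.24 for Kif12, 1.07 for Mcm5, 0.94 for Kif21b and 0.90 for Cdk1, and -0.58 for Kif2a, -0.65 for Cdk17, -0.69 for Cdca4, -0.80 for Cdc42ep2 and -0.83 for Cdc42ep4. For rhabdomyolysis minus cisplatin they were 0.96 for Kif5a, 0.88 for Cdk12, 0.64 for Kif21b, 0.61 for Kif2a, 0.47 for Pcna, 0.46 for Cdk17, 0.38 for Cdca4 and 0.33 for Cdc42ep4, and -0.39 for Cenpt, -0.65 for Ccne2, -0.79 for Top2a, -0.87 for Kif9 and -0.87 for Rrm2.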

How the results depend on the processing

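Limits: the table holds selected genes only, members near 1 CPM rest on few reads, and each group has 4 mice. Of 156 tested values of named members, no called value changed sign under the alternatives it was run in (90 values with a minimum mean of 5 CPM, 52 each for the pair alone and the replicate block, 132 for the genes that pass the table's minimum on controls alone, and all 156 otherwise). The restriction to genes that pass on controls alone was chosen after seeing the data and only drops genes from the counts, so the 94 calls in it are those of the same fit. Of the 105 that were called, 54 passed with a fold of at least 2, 103 with a pseudocount of 0.1 CPM, 105 without a minimum mean, 102 with 75th percentile scaling, 93 with quantile normalization, 103 with all 8 controls pooled, and 99, 98 and 95 with edgeR, edgeR with TMM and DESeq2 on recovered reads. Pooled controls added 15 calls, quantile normalization 6 and 75th percentile scaling 2. 75th percentile scaling moved the median log2 change of all genes from 0.08 to 0.18 in IRI and from 0.31 to 0.44 in rhabdomyolysis, and quantile normalization from 0.31 to 0.14 in rhabdomyolysis and from 0.30 to 0.03 in cisplatin.

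Counts of members called higher are given first and lower second. With a minimum mean of 5 CPM, which tests fewer genes, there were 19 higher after IRI, 22 and 7 after rhabdomyolysis and 22 and 7 after cisplatin, 3 lower in rhabdomyolysis than cisplatin, and 4 higher in the IRI effect than in the rhabdomyolysis effect and 4 than in the cisplatin effect. There 7 S phase genes and 1 mitosis gene were higher in each injury. With a fold of at least 2, the counts were 18 and 3 after IRI, 14 and 7 after rhabdomyolysis, 10 and 4 after cisplatin, 0 and 0 between rhabdomyolysis and cisplatin, 7 and 5 for IRI against rhabdomyolysis effects and 4 and 0 for IRI against cisplatin effects. Of these, after IRI, rhabdomyolysis and cisplatin 2, 1 and 2 were G1 genes and 5, 2 and 1 mitosis genes, and 2 were S phase genes after rhabdomyolysis and 2 after cisplatin. With 75th percentile scaling 5 were lower after IRI. With quantile normalization 23 were higher after cisplatin and 18 in the IRI effect over the cisplatin effect, with 3 and 2 mitosis genes and 8 and 7 S phase genes higher after rhabdomyolysis and cisplatin. With all 8 controls pooled, 20 were higher for IRI against rhabdomyolysis effects, 17 higher and 8 lower for IRI against cisplatin effects, and 8 mitosis genes were higher after rhabdomyolysis and 8 after cisplatin. For IRI against cisplatin effects 6 were higher with edgeR, 7 higher and 3 lower with edgeR and TMM, and 6 higher and 2 lower with DESeq2, which also called 3 lower in rhabdomyolysis than cisplatin. The cause of these moves was not tested.

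Leaving out 1 kidney at a time, members called ranged from 39 to 41 higher and 6 to 8 lower after IRI, 34 to 38 and 12 to 14 after rhabdomyolysis, and 31 to 36 and 11 to 12 after cisplatin. They ranged from 12 to 16 and 6 to 7 between rhabdomyolysis and cisplatin, 9 to 17 and 10 to 12 for IRI against rhabdomyolysis effects and 6 to 13 and 4 to 5 for IRI against cisplatin effects, the lowest without control 6. G1 genes higher were 6 after IRI and 5 to 6 after the others. S phase genes higher were 12 to 13, 11 to 13 and 10 to 12, and mitosis genes 10 to 11, 3 to 5 (3 without control 8) and 4 to 6.

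Equal replicate numbers share only a number: correlations of deviations ran from -0.11 to 0.18 for controls and IRI and from -0.21 to 0.32 for rhabdomyolysis and cisplatin, and 1 of 4 kidneys in each pair of groups correlated best with its own number. With the replicate block, 41 members were higher and 8 lower after IRI (41 and 7 without the block in those 8 libraries), and 13 were higher and 6 lower in rhabdomyolysis than cisplatin (14 and 7 without it).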
